A study of Mus musculus with 38 samples.

Results

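The segments described here are the IBA1+ segments of periportal regions of interest (ROIs) in the livers of WT mice, compared between mice fed the cholestatic diet DDC and mice fed the control diet. They were chosen by their labels alone, as the periportal IBA1+ segments of WT, and number 6 of the 38 segments and 23 ROIs analysed in the series. The DDC group held 4 segments (ROIs 007, 009, 011 and 013) and the control diet group held 2 (ROIs 003 and 005). In both groups the genotype is given as WT, while the study's methods name WT mice and *Trail* fl/fl littermates as its controls. The mice were 6 to 8 weeks old at the start and went through rounds of 5 days of diet and 3 days of chow for 21 days, until day 22. In the other genotype of the series, TrailΔmye, a floxed *Trail* allele was combined with Cre driven from *Lyz2*, which acts in myeloid cells and therefore not in macrophages alone. That genotype had 4 periportal IBA1+ segments on the control diet and 5 on DDC. In WT there were also 3 and 4 PanCK+ segments, which cover the bile duct epithelium of the periportal ROIs. The tissue was fixed and sectioned, ROIs were drawn around the ductular reaction, and a segment is the area inside an ROI that an antibody to IBA1 or to PanCK stained. The sources used here do not name the animal behind each segment. Some segments may come from the same mouse, and the p-values below therefore measure the spread between segments, which may be technical, and are too small to stand for mice.

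IBA1, the product of *Aif1*, is a protein of macrophages. In the healthy liver most macrophages are Kupffer cells, which live in the sinusoids, clear particles and senescent red cells and carry the lectin encoded by *Clec4f*. In injured liver, monocytes from the blood give rise to further macrophages, and those near scars are known for genes such as *Trem2*, *Gpnmb*, *Cd9* and *Spp1*. DDC disturbs heme synthesis, forms porphyrin plugs in small ducts, and leads to cholestasis with a ductular reaction and fibrosis around the portal tracts.

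Total counts were 26380 and 35208 in the control diet segments and 21551, 24502, 20319 and 34302 in the DDC segments of ROIs 007, 009, 011 and 013. These are shallow libraries. The lowest value a gene can take in the deposited counts is 1, and between 45.6% and 70.3% of the 10547 genes stood at 1 in each segment. All 6 segments were at 1 for 1484 genes. The negative probe was at 1.03 to 1.15 counts per segment. Q3 normalization sets the 75th percentile of every segment equal. That percentile was 2 counts in 5 of the segments and 3 counts in ROI 013, so a single count was worth 5.25 Q3-normalized counts in the former and 3.50 in the latter. Where every segment of a group was at 1, only a bound on the fold can be had, computed with a floor of 3 counts in each of its segments. Where a group held only a few counts, the ratio of its Q3-scaled counts is given with an exact 95% interval that covers counting error only.

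The label was checked against marker genes. *Aif1* itself was near the lowest value, with 4 and 1 counts in the control diet segments and 4, 1, 1 and 3 in the DDC segments. The complement genes that macrophages express were clearly counted, *C1qa* at 35 and 24 on the control diet and at 18, 11, 12 and 33 on DDC. Hepatocyte transcripts outweighed them. *Alb*, the gene of serum albumin, had 1053 and 1379 counts on the control diet and 336, 671, 184 and 669 on DDC. A list of 25 hepatocyte and plasma protein genes made up 10.1% and 12.2% of all counts in the control diet segments and 2.44% to 6.94% in the DDC segments, against 0.663% and 0.267% and then 0.359% to 0.452% for 10 macrophage genes. The bile duct markers *Krt19* and *Epcam* were at 1 to 3 counts in every segment. A segment is a bulk sample, in which fewer cells of a type and less RNA per cell cannot be told apart.

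Of the 10547 genes, 125 were called between the diets at an adjusted p under 0.05 by edgeR's quasi-likelihood test (1.19%), and 537 had an unadjusted p under 0.05. Only 15 were higher on DDC (0.142%) and 110 were lower (1.04%). All 15 called higher and 108 of the 110 called lower had DDC and control diet segments that did not overlap on Q3-normalized counts. For comparison, 1.99% of all genes had every DDC segment above both control diet segments and 5.92% had every DDC segment below them. The genes called higher had a median log2 fold change of 3.58, and those called lower had one of -2.47, against -0.16 over all genes. With genes at the lowest value set to their bounds, the 3 medians were 2.86, -2.41 and 0. The control diet group rests on ROIs 003 and 005. Without ROI 005, 4 genes were called higher and 26 lower, and without ROI 003, 5 and 101. Scaling by library totals alone, chosen after seeing the data, gave 40 higher and 64 lower, and a filter on low counts gave 86 and 124. The genes called in all 6 fits that left out 1 segment were 25 in number, 4 higher (*Col1a1*, *Col3a1*, *Mgp* and *Spp1*) and 21 lower.

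Genes of the extracellular matrix led the genes that rose. *Col3a1*, which encodes the chain of type III collagen and lies at chr1:45311538-45349706, had 2 and 1 counts on the control diet and 65, 58, 96 and 125 on DDC. Its Q3-normalized count was 7.88 ± 3.71 (SD, n = 2) and 397 ± 90.9 (SD, n = 4), a ratio of 51.0 with a counting interval of 17.3 to 248 (adjusted p = 1.61e-06, edgeR). *Col1a1*, a chain of type I collagen at chr11:94936224-94953042, was at 1 count in both control diet segments and at 51, 54, 90 and 69 in the DDC segments. The transcript thus stood at the lowest value in the controls and was plentiful in every DDC segment, and the rise was at least 20.1-fold (adjusted p = 2.05e-05, edgeR). *Col1a2*, the partner chain, was at 1 and 1 against 11, 18, 16 and 24, at least 5.08-fold higher (adjusted p = 0.0135). *Sparc*, a collagen-binding matrix protein, had 1 and 2 counts against 15, 14, 28 and 34, a ratio of 13.5 (interval 4.47 to 66.6, adjusted p = 0.00138). *Bgn*, which encodes the proteoglycan biglycan, had 3 and 1 against 17, 12, 22 and 35, a ratio of 9.56 (interval 3.60 to 35.9, adjusted p = 0.00271). In each of these 5 genes the lowest DDC segment was well above the higher control diet segment.

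**Figure D1:**
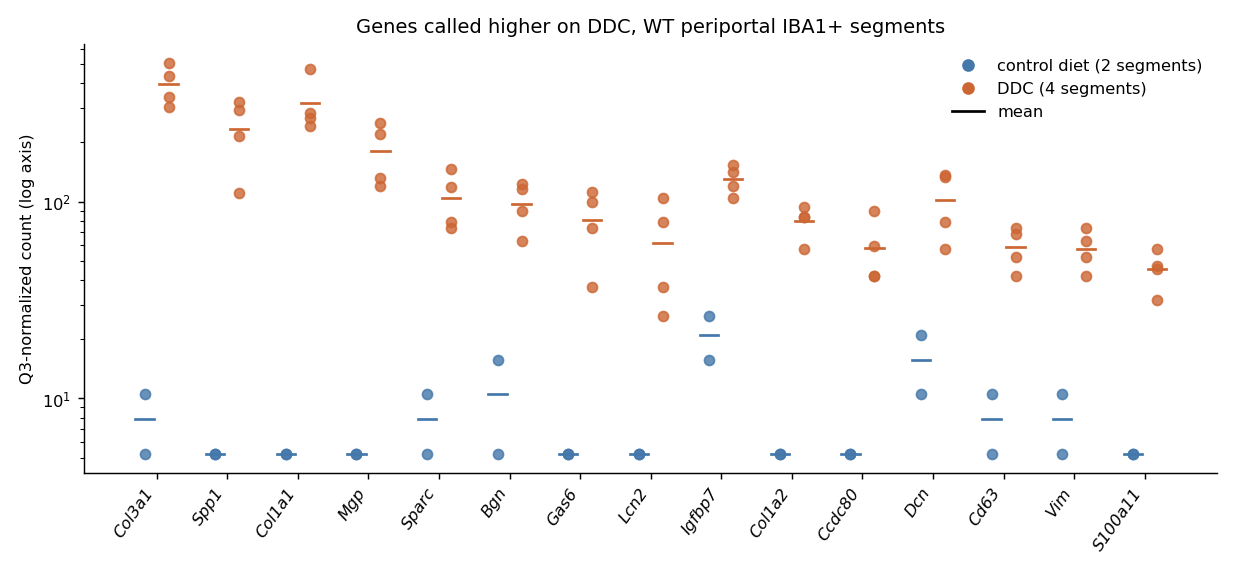
The 15 genes called higher on DDC, with Q3-normalized counts on a log axis; each circle is 1 segment (blue, control diet, 2 segments; orange, DDC, 4 segments) and the short lines are group means. For 8 of the genes both control diet circles lie on the lowest possible value, 5.25, and in all 15 genes the DDC circles lie above the control diet circles.

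The list of collagen and matrix genes had 28 measured members, of which these 5 were called higher and none lower, 17.9% of the list against 0.142% of all genes. Its median log2 fold change was 2.04, or 0.75 with bounds for genes at the lowest value. In 15 of the 28 genes all DDC segments were above the control diet segments, against 1.99% of all genes. The summed counts of the list were 0.190% and 0.134% of the total on the control diet and 1.12% to 1.82% on DDC. Several members came close without being called, such as *Col6a3* at 1 and 2 against 10, 7, 12 and 18 (adjusted p = 0.0643), *Col4a1* at 1 and 1 against 1, 11, 15 and 14 and *Timp3* at 3 and 3 against 6, 16, 15 and 18 (adjusted p = 0.0948 for both). *Fn1*, the gene of fibronectin, which hepatocytes also secrete, had 9 and 11 counts against 5, 14, 10 and 12 and a log2 fold change of -0.12 (standard error, SE, 0.52). Without the control diet segment of ROI 005 only *Col1a1* and *Col3a1* of the list stayed called, and without that of ROI 003 there were 3 calls.

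Among the 15 markers of fibroblasts and stellate cells, the cells that lay down matrix in injured liver, 2 were called higher (13.3%, against 0.142% of all genes). *Dcn*, the gene of the proteoglycan decorin, had 4 and 2 counts on the control diet and 11, 15, 26 and 38 on DDC, a log2 fold change of 2.69 (SE 0.66, adjusted p = 0.0179). *Vim*, an intermediate filament gene of mesenchymal cells and of leukocytes, had 1 and 2 counts against 14, 8, 10 and 18 (ratio 7.41, interval 2.39 to 37.1, adjusted p = 0.0385). Other defining members of the list stayed near the lowest value, with *Pdgfrb* at 1 and 1 against 3, 1, 2 and 3, *Des* at 1 and 1 against 2, 1, 1 and 4, and *Acta2* at 1 and 1 against 3, 3, 6 and 6. The median of the list was 1.67, or 0.42 with bounds. Its summed level was 0.0796% and 0.0511% of the counts on the control diet and 0.196% to 0.453% on DDC, so that fibroblast markers moved with the matrix genes. Their part in the rise of the matrix genes was not tested. Neither *Dcn* nor *Vim* was called without the segment of ROI 003, 005 or 013, or with only the 6 WT segments in the fit.

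The other 8 genes that rose were of several kinds. *Spp1*, the gene of osteopontin, a secreted phosphoprotein made by both bile duct cells and macrophages, was at 1 count in both control diet segments and at 21, 61, 41 and 84 in the DDC segments. Its Q3-normalized count reached 235 ± 94.4 (SD, n = 4) on DDC and the rise was at least 14.9-fold (adjusted p = 1.55e-05, edgeR). *Mgp*, which encodes matrix Gla protein, an inhibitor of calcification, was at 1 and 1 against 48, 23, 25 and 63, at least 11.5-fold higher (adjusted p = 0.000169). *Gas6*, the ligand of the receptor tyrosine kinases Axl, Mer and Tyro3 that take part in the uptake of dying cells, was at 1 and 1 against 14, 7, 19 and 32, at least 5.11-fold higher (adjusted p = 0.00375). The receptor genes *Axl*, with 10 and 4 counts against 6, 5, 3 and 6, and *Mertk*, with 3 and 4 against 2, 1, 5 and 2, were not called. *Lcn2*, an iron-siderophore-binding protein of the acute phase, was at 1 and 1 against 5, 15, 7 and 30, at least 3.92-fold higher (adjusted p = 0.00798). *Igfbp7*, a secreted binding protein of insulin-like growth factors, had 3 and 5 counts against 27, 23, 20 and 44 and a log2 fold change of 2.63 (SE 0.60, adjusted p = 0.00849). The 3 other genes were *Ccdc80*, a matrix protein gene (1 and 1 against 8, 8, 17 and 17), *Cd63*, a tetraspanin of late endosomes (2 and 1 against 13, 8, 14 and 15), and *S100a11*, a calcium-binding protein gene (1 and 1 against 11, 9, 6 and 13). Their adjusted p-values were 0.0137, 0.025 and 0.0432, and all 3 genes lost the call when either control diet segment was left out. The same held for *Gas6*, *Lcn2* and *Igfbp7*, and *Lcn2* also lost the call without the DDC segment of ROI 013.

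None of the 10 macrophage genes was called in either direction. Their median log2 fold change was -0.55, and their summed level overlapped between the diets. For *C1qa* the Q3-normalized count was 155 ± 40.9 (SD, n = 2) on the control diet and 82.7 ± 27.3 (SD, n = 4) on DDC, a log2 fold change of -0.88 (SE 0.45, adjusted p = 0.938). *C1qb* had 38 and 23 counts against 29, 22, 13 and 36. *Cd68*, a lysosomal protein of phagocytes, had 15 and 3 against 4, 6, 3 and 16, and its log2 fold change of -0.52 became 1.06 without ROI 003. *Adgre1*, which encodes F4/80, had 8 and 5 against 5, 2, 1 and 4 (log2 fold change -1.28, SE 0.63), and *Lyz2*, the gene of lysozyme, had 5 and 1 against 6, 5, 12 and 8 (log2 fold change 1.20, SE 0.63). In *Cd68* and *Lyz2* the 2 control diet segments lay far apart, with ROI 003 the higher one in both.

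Of 10 Kupffer cell genes, 3 were called lower (30.0%, against 1.04% of all genes) and none higher. *Clec4f*, the lectin that marks these cells (chr6:83644542-83656116, minus strand), had 41 and 21 counts on the control diet and 1, 5, 1 and 7 on DDC. In Q3-normalized counts it fell from 163 ± 74.3 (SD, n = 2) to 15.3 ± 11.6 (SD, n = 4), with a log2 fold change of -3.33 (SE 0.53, adjusted p = 3.81e-05, edgeR), and it was called in all 6 fits that left out 1 segment. *Slc40a1*, the gene of the iron exporter ferroportin, fell from 16 and 15 counts to 1, 3, 3 and 3 (log2 fold change -2.79, SE 0.55, adjusted p = 0.00115). *Cd5l*, a secreted scavenger receptor family member, had 19 and 15 counts against 2, 7, 1 and 9 (log2 fold change -2.02, adjusted p = 0.0293). In all 3 genes both control diet segments were above every DDC segment. *Folr2* at 10 and 5 against 2, 1, 1 and 3 and *Nr1h3* at 12 and 8 against 2, 4, 1 and 4 did not overlap either but missed the threshold (adjusted p = 0.0588 and 0.0618). *Timd4* had 5 and 5 counts against 3, 1, 1 and 1 (adjusted p = 0.372). *Id3* was the only member with a positive log2 fold change, at 3 and 1 counts against 1, 4, 1 and 5. In 7 of the 10 genes every DDC segment was below both control diet segments, against 5.92% of all genes. The list had a median of -1.96 that stayed negative in every setting run. The summed level of the list was 0.466% and 0.227% on the control diet and 0.0640% to 0.135% on DDC. Hepatocyte transcripts fell in the same segments, and their part in this result was not tested. Of the 3 calls, that of *Cd5l* was lost in 4 of the 6 fits that left out a segment and the others in none.

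The 14 measured markers of monocyte-derived and scar-associated macrophages had a median of 1.86, or 1.10 with bounds, and 1 of them, *Cd63*, was called higher (7.14%, against 0.142%). *Lgals3*, the gene of galectin-3, had 4 and 2 counts against 15, 9, 9 and 15 (log2 fold change 1.83, SE 0.67, adjusted p = 0.342). The lipid-sensing receptor gene *Trem2* had 1 and 2 against 3, 3, 6 and 10, *Gpnmb* 1 and 1 against 8, 7, 1 and 7, and *Cx3cr1* 1 and 1 against 5, 2, 3 and 9. *Mmp12*, the macrophage elastase, had 1 and 1 against 4, 10, 3 and 12 (adjusted p = 0.363). In 6 of the 14 genes every DDC segment was above both control diet segments, against 1.99% of all genes, while the summed level of the list overlapped between the diets. *Apoe*, which hepatocytes also express, carried most of that sum, with 217 and 340 counts against 117, 226, 141 and 357.

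**Figure D2:**
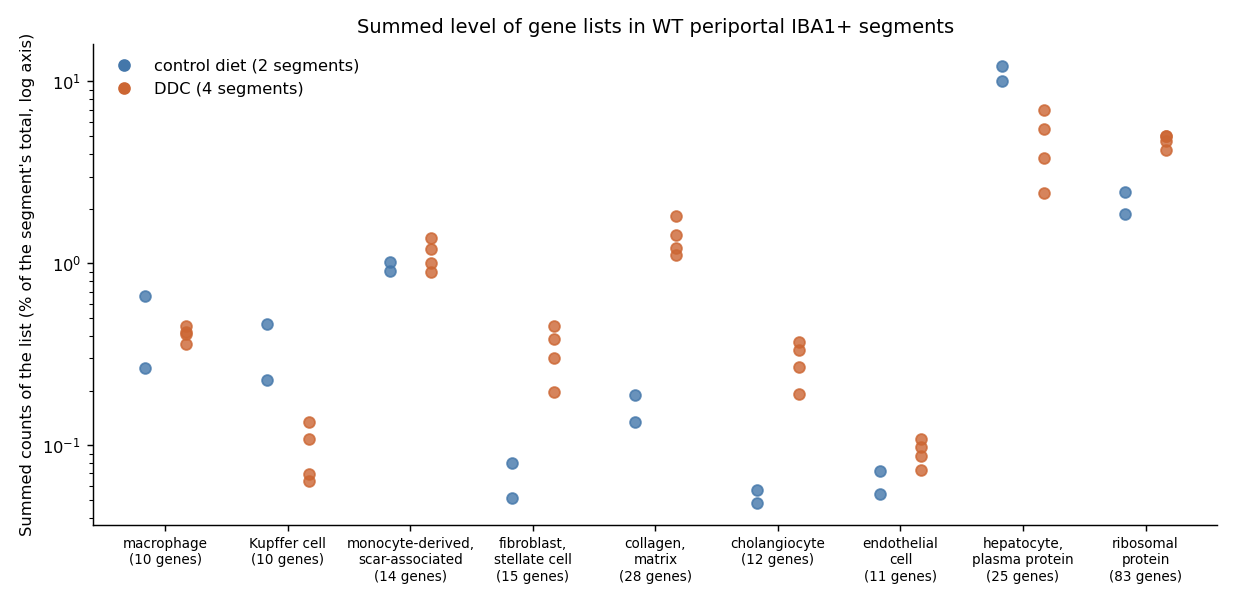
Summed counts of 9 gene lists as a percentage of each segment's total count, on a log axis; each circle is 1 segment (blue, control diet; orange, DDC). The Kupffer cell and hepatocyte lists lie lower on DDC, the fibroblast, matrix, cholangiocyte and ribosomal protein lists lie higher, and the macrophage list overlaps. In the cholangiocyte list *Spp1* alone was called higher, and 9 of the 12 genes were at 1 count in a whole group.

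Among the called genes the largest fall was that of *Mup13*, the gene of a major urinary protein, which is a small pheromone-binding protein that hepatocytes secrete. It had 1346 and 2167 counts on the control diet and 21, 44, 14 and 21 on DDC. In Q3-normalized counts these were 9225 ± 3049 (SD, n = 2) and 122 ± 74.7 (SD, n = 4), with a log2 fold change of -6.25 (SE 0.48, adjusted p = 3.34e-14, edgeR). This 1 target made up 5.10% and 6.16% of all counts in the control diet segments and 0.0612% to 0.180% in the DDC segments. The *Mup* genes lie in a cluster of near-identical copies, and which of them the probes read cannot be told here.

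Of 25 measured genes of hepatocyte identity and plasma proteins, 13 were called lower and none higher (52.0%, against 1.04% of all genes). In 20 of them all DDC segments were below the control diet segments, against 5.92% of all genes. The median of the list was -1.67 (the bounds change nothing here), and it stayed negative in every setting run. *Serpina3k*, a serine protease inhibitor, had 216 and 368 counts against 26, 38, 12 and 56 (log2 fold change -3.35, SE 0.43, adjusted p = 3.06e-07). *Apoa2*, an apolipoprotein of high-density lipoprotein, had 192 and 360 against 31, 76, 26 and 76 (log2 fold change -2.58, SE 0.41, adjusted p = 3.94e-05). *Apoc3* (-2.53) and *Serpina1a* (-2.19), an inhibitor of neutrophil elastase, were called as well. *Alb* fell less than these, from 6387 ± 1211 (SD, n = 2) to 2149 ± 1076 (SD, n = 4), with a log2 fold change of -1.57 (SE 0.39, adjusted p = 0.0235), and was called in 1 of the 6 fits that left out a segment. Of the 110 genes called lower, the other 109 all had a lower log2 fold change than *Alb*. *Alb* had the smallest SE of the called genes, and a gene with a larger SE needs a larger fall to be called. This ranking therefore follows in part from the threshold, and whether these genes fell more than *Alb* was not tested. Other hepatocyte transcripts were not called. *Trf*, the gene of transferrin, had 62 and 83 counts against 56, 127, 33 and 124 (log2 fold change 0.04, SE 0.45), *Hpx*, the heme carrier hemopexin, had 37 and 92 against 37, 83, 21 and 117 (-0.23), and *Apoc2* had 12 and 17 against 9, 39, 9 and 23 (0.31). The plasma protein list thus held members from -3.35 to 0.31. Without the control diet segment of ROI 005, 1 of the 25 genes was called, without the DDC segment of ROI 011, 8 were, and with TMM factors 5 were.

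**Figure D3:**
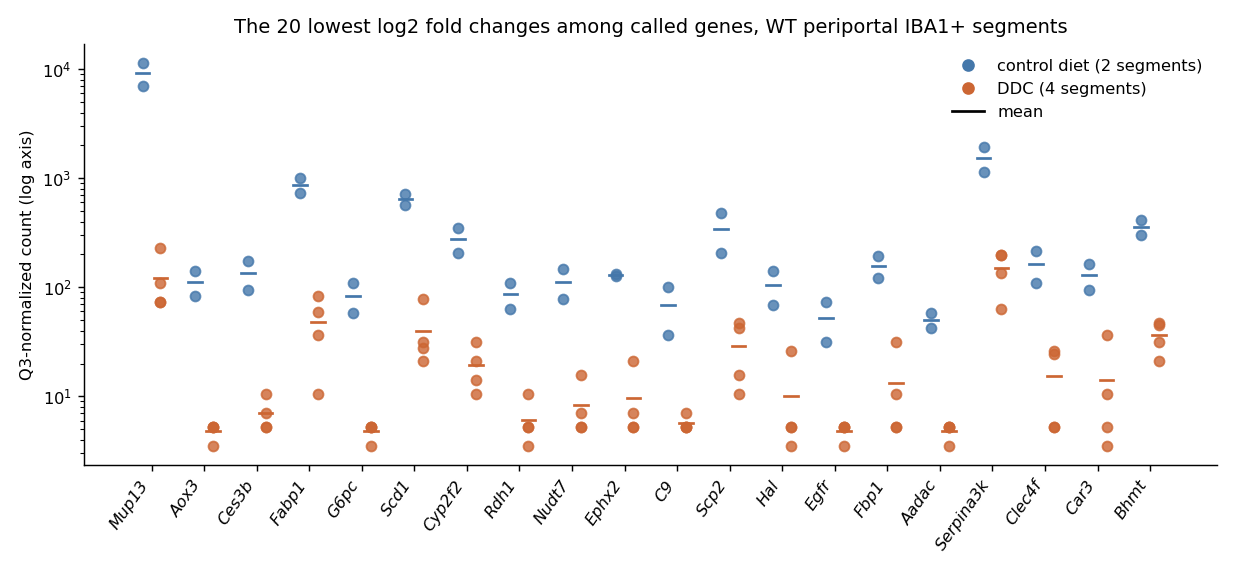
The 20 called genes with the lowest log2 fold changes, with Q3-normalized counts on a log axis; circles are segments (blue, control diet, 2; orange, DDC, 4) and short lines are group means. The groups do not overlap in any of the 20 genes, and several DDC segments lie on the lowest possible value, 5.25 or, in ROI 013, 3.50.

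Genes of lipid metabolism were among those that fell most. *Fabp1*, the liver fatty acid-binding protein (chr6:71199879-71205034), had 139 and 191 counts on the control diet and 7, 16, 2 and 17 on DDC. Its Q3-normalized counts were 867 ± 193 (SD, n = 2) and 47.7 ± 31.4 (SD, n = 4), a log2 fold change of -4.16 (SE 0.45, adjusted p = 7.87e-09, edgeR). *Scd1*, the stearoyl-CoA desaturase that makes monounsaturated fatty acids, had 108 and 138 counts against 6, 15, 4 and 8 (log2 fold change -4.04, SE 0.46, adjusted p = 1.81e-08). *Scp2*, a sterol carrier and peroxisomal thiolase, had 39 and 91 against 2, 9, 3 and 12 (-3.51, adjusted p = 9.15e-07). In the list of fatty acid oxidation and lipogenesis, 7 of 33 genes were called lower (21.2%, against 1.04%) and none higher, with a median of -1.15 or -0.69 with bounds. The summed level of the list was 1.45% and 1.49% against 0.281% to 0.449%. The fatty acid synthase gene *Fasn* was at 3 and 2 against 1, 2, 1 and 6. Without ROI 005 the list held 2 calls, and without the DDC segment of ROI 013 it held 4.

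Amino acid metabolism gave the most calls after the plasma proteins, with 12 of 32 measured genes of the urea cycle and amino acid breakdown called lower (37.5%, against 1.04%). In 23 of the 32 genes all DDC segments were below the control diet segments, against 5.92% of all genes. *Bhmt*, which methylates homocysteine with betaine, had 57 and 79 counts against 4, 9, 6 and 13 (log2 fold change -3.27, SE 0.44, adjusted p = 1.25e-06). *Gnmt*, the glycine methyltransferase, had 26 and 43 against 1, 6, 2 and 8 (-3.20), and *Hal*, the first enzyme of histidine breakdown, had 13 and 27 against 1, 5, 1 and 1 (-3.46). Of the urea cycle itself, *Otc* (9 and 23 against 1, 2, 2 and 4, -2.99) and *Ass1* (38 and 52 against 11, 8, 7 and 11, -2.44) were called, while *Cps1* (23 and 52 against 6, 20, 8 and 19, adjusted p = 0.0552) and *Arg1* (9 and 34 against 4, 10, 1 and 13, adjusted p = 0.0918) were not. All 4 had negative log2 fold changes, and *Arg1* alone overlapped between the diets. Markers of the periportal hepatocyte zone had 5 of 15 genes called lower (33.3%), among them *Cyp2f2* (39 and 66 against 2, 6, 4 and 4, log2 fold change -3.86, adjusted p = 3.01e-07) and *Pck1*, the gene of gluconeogenesis (47 and 77 against 16, 8, 5 and 25, -2.41). The 13 pericentral markers gave no call and a median of -0.16, with *Cyp2e1* at 12 and 14 against 5, 9, 8 and 9 and *Glul*, glutamine synthetase, at 8 and 4 against 4, 7, 3 and 12. The difference between the zones was not tested, and most pericentral genes were at 1 to 5 counts. Without ROI 005, 2 genes of the amino acid list and 1 periportal marker were called, without ROI 003, 13 and 8, and with TMM factors 7 and 5.

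*Aox3*, an aldehyde oxidase of hepatocytes, had 16 and 27 counts on the control diet and 1 in each of the 4 DDC segments, at least 7.82-fold lower (adjusted p = 1.24e-07). *Ces3b*, a carboxylesterase, had 18 and 33 against 1, 2, 1 and 2 (adjusted p = 2.94e-07), and *G6pc*, the phosphatase that releases glucose from the liver, had 11 and 21 against 1 in every DDC segment, at least 5.82-fold lower (adjusted p = 0.000131). *Egfr*, the receptor of epidermal growth factor, and *Aadac*, an arylacetamide deacetylase, likewise stood at 1 in all DDC segments and were at least 3.64-fold and 3.45-fold lower. Of 24 genes of bile acid synthesis and transport, 3 were called lower (12.5%, against 1.04% of all genes), the conjugating ligase gene *Slc27a5* (-2.38, adjusted p = 0.00357), the canalicular export pump gene *Abcb11* (-2.33, adjusted p = 0.0103) and the sodium-taurocholate uptake carrier gene *Slc10a1* (-2.31, adjusted p = 0.0144). These 3 had 7 to 19 counts on the control diet and 1 to 5 on DDC, and the list had a median of -0.77. *Cyp7a1*, the rate-limiting enzyme of bile acid synthesis, was at 1 count in all 6 segments. Of 50 cytochrome P450 genes 3 were called lower (6.0%, against 1.04% of all genes), and of 40 glucuronosyl-, glutathione- and sulfotransferase genes 4 were (10.0%), with *Gstp1* at 88 and 146 against 21, 37, 15 and 41 (-2.22, adjusted p = 0.000573). Of 213 solute carriers, 7 were called lower (3.29%, against 1.04%), among them *Slc27a2* (-3.01) and *Slc25a47* (-2.48). In the 6 fits that left out 1 segment, the calls numbered 0 to 3 among the bile acid genes, 0 to 3 among the transferases, 1 to 6 among the P450 genes and 2 to 7 among the solute carriers, each lowest without ROI 005.

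**Figure D4:**
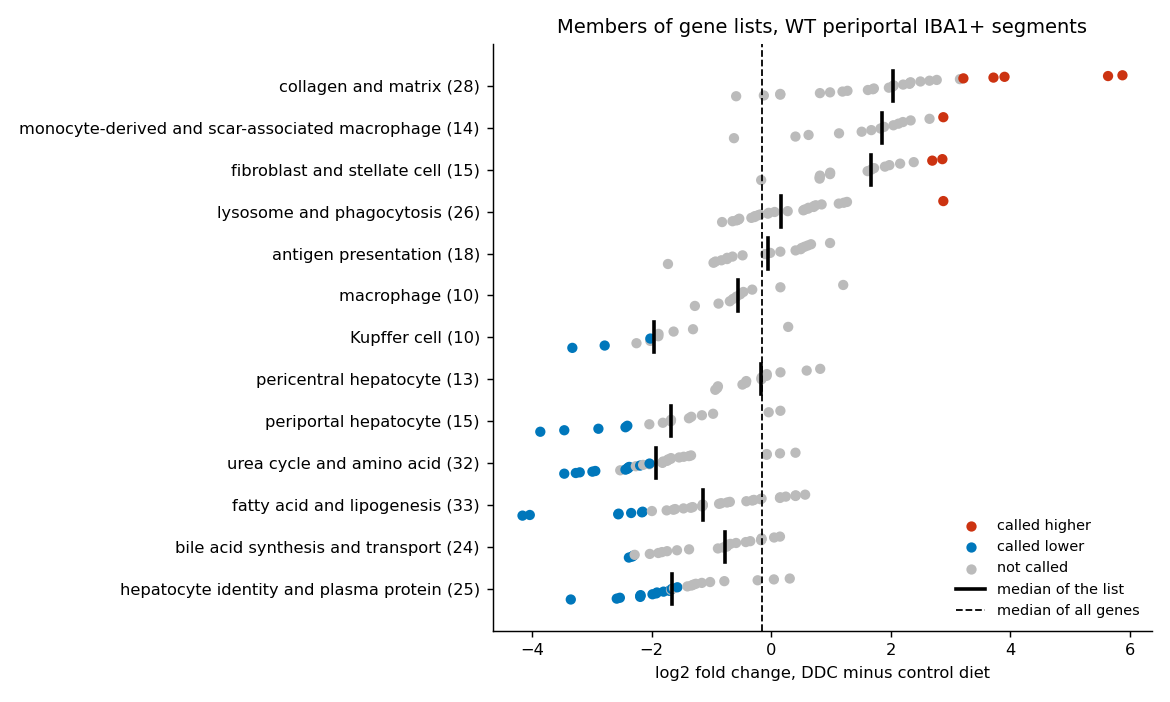
Log2 fold change, DDC minus control diet, of each measured member of 13 gene lists; each circle is 1 gene (red, called higher; blue, called lower; grey, not called), the black bar is the median of the list and the dashed line is the median of all genes, -0.16. Medians run from 2.04 for collagen and matrix genes to -1.96 for Kupffer cell genes; for genes at the lowest value in a whole group the plotted fold change is the fitted one and no bound.

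Promoter sequences are shown for 4 of the genes called in all 6 leave-one-out fits, 2 that rose and 2 that fell, to give the sequence from which these transcripts start. They are the 150 bases before the RefSeq start site in GRCm38.p6, read 5′ to 3′ along the gene's strand, at chr1:45311388-45311537 (plus strand, *Col3a1*), chr5:104434961-104435110 (plus strand, *Spp1*, the first of 2 windows listed), chr6:71199729-71199878 (plus strand, *Fabp1*) and chr6:83656117-83656266 (minus strand, *Clec4f*). Capitals mark matches to the letters searched for on both strands. These were TATAAA for the TATA box, the letters CCAAT for the box of that name (which reads ATTGG in reverse), the GC box given by GGGCGG, a half-site of nuclear receptors given by AGGTCA (which reads TGACCT in reverse), a half-site of HNF1 given by GTTAAT, and the AP-1 site given by TGANTCA.
Col3a1: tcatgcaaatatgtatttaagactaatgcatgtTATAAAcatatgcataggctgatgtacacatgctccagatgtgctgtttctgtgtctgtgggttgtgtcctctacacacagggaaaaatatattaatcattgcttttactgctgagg
Spp1: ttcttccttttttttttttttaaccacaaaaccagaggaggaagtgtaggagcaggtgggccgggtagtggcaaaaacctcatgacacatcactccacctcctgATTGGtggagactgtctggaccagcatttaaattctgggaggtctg
Fabp1: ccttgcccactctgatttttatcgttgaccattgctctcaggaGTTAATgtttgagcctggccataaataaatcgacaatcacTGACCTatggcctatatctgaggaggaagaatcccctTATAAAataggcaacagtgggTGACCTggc
Clec4f: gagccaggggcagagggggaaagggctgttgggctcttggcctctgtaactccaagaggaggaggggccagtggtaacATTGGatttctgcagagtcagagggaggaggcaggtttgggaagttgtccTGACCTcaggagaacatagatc
In the window of *Fabp1*, TATAAA stood 30 bases before the start and the nuclear receptor half-site stood at 67 and 9 bases before it, both in reverse, with GTTAAT at 107. The window of *Clec4f* held the same half-site 22 bases before the start and CCAAT at 72, both in reverse. The window of *Spp1* held CCAAT in reverse at 46 bases, and that of *Col3a1* held TATAAA at 117. None of the windows held GGGCGG or TGANTCA. Of the 8428 tested genes with a window, 3.97% held TATAAA, 27.8% CCAAT, 52.6% GGGCGG, 6.26% AGGTCA, 2.06% GTTAAT and 2.79% TGANTCA. A match is a description of letters and not a binding site. Windows were at hand for 11 of the 15 genes called higher and 86 of the 110 called lower, and no comparison of these shares between called genes and the rest was made.

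No gene was called in either direction in the lists of chemokines and cytokines (18 genes measured), antigen presentation (18), interferon response (16), neutrophils (5), T, B and plasma cells (6), endothelial cells (11) and the cell cycle (13). Most of their members were at 1 to 5 counts. The summed level was nevertheless higher in every DDC segment for the chemokines and cytokines (0.106% and 0.0994% against 0.159% to 0.283%), endothelial markers (0.0720% and 0.0540% against 0.0735% to 0.108%), T, B and plasma cell markers (0.0227% and 0.0170% against 0.0292% to 0.0371%) and the cell cycle (0.0569% and 0.0426% against 0.0882% to 0.108%). A gene at 1 count takes a larger share of a smaller total, and these sums were not tested. The sums of the other 3 lists overlapped. Among those with more counts, *Cd74*, the invariant chain of MHC class II, had 53 and 20 against 83, 32, 33 and 89 (log2 fold change 0.51, SE 0.52), *H2-Ab1* had 23 and 9 against 40, 13, 21 and 41 (0.67), and *Cxcl12* had 8 and 5 against 16, 7, 13 and 22 (0.97). In all 3 the diets overlapped. *B2m*, the light chain of MHC class I, had 80 and 73 against 33, 67, 38 and 85, with a log2 fold change of -0.65 (SE 0.41). Of 26 genes of lysosomes and phagocytosis only *Cd63* was called (3.85%, against 0.142% called higher among all genes). The list had a median of 0.17, or 0.03 with bounds, and 14 of the 26 genes had a positive log2 fold change. Among these, *Ctsd* (22 and 23 against 32, 44, 23 and 71), *Ctss* (17 and 13 against 27, 21, 22 and 42) and *Psap* (51 and 31 against 62, 55, 49 and 107) had log2 fold changes of 0.71, 0.71 and 0.54. Of 23 acute phase and complement genes, *Lcn2* was called higher (4.3%, against 0.142% of all genes). *C9* (7 and 19 against 1, 1, 1 and 2) and *C8b* (6 and 10 against 1, 2, 1 and 2), both of the membrane attack complex, were called lower (8.7%, against 1.04%). The 22 genes of heme and iron held 1 call, *Slc40a1* (4.5%), and the 23 genes of the oxidative stress response held *Aox3* and *Gstp1* (8.7%). All 3 were lower, against 1.04% of all genes. The ferritin genes *Ftl1* (0.02) and *Fth1* (0.47) were counted at 39 to 107 in every segment and were not called. The metallothioneins *Mt1* (1 and 2 against 10, 16, 8 and 8) and *Mt2* (1 and 1 against 14, 15, 7 and 3) did not overlap but missed the threshold (adjusted p = 0.097 and 0.0875), as did *Krt8* (6 and 4 against 14, 30, 9 and 26, adjusted p = 0.147). Of the 12 cholangiocyte markers, *Spp1* alone was called, and the other 11 were at 1 to 9 counts. Among 83 ribosomal protein genes none was called, the median was 0.65 and 29 had all DDC segments above the controls, against 1.99% of all genes. Their summed level was 2.47% and 1.86% against 4.20% to 5.00%. Under the filter on low counts 16 of them were called higher, where 86 of all 3662 genes kept were.

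The diet effect in WT was then set against that in TrailΔmye segments, which had far higher total counts (80722 to 568720 per segment, with at most 13.1% of genes at 1). In TrailΔmye periportal IBA1+ segments, 443 genes were called higher on DDC (4.2%) and 546 lower (5.18%), 989 in all (9.38%). All 15 genes called higher in WT were among the former, and 87 of the 110 called lower in WT were among the latter. A test of the difference between the diet effects of the 2 genotypes called 6 genes (0.0569%), all with a lower effect in WT, and 203 genes had an unadjusted p under 0.05. *Gstp1*, a glutathione S-transferase with a near-identical neighbor gene, had 462 and 767 Q3-normalized counts on the control diet and 110, 194, 78.8 and 144 on DDC in WT, against 40.7 to 66.5 and 46.8 to 136 in TrailΔmye. The log2 fold changes differed by -3.10 (SE 0.53, adjusted p = 0.00399, edgeR). *Bhmt* (difference -2.98, adjusted p = 0.00459), *Aox3* (-3.67, adjusted p = 0.00459), *Scp2* (-2.89, adjusted p = 0.0156) and *Cyp4a12a*, a male-biased fatty acid hydroxylase with near-identical copies (-3.65, adjusted p = 0.0128), shared this form. For *Aox3* all 4 WT DDC segments were at 1 count, so its difference is a fitted value. Its WT part is bounded only as a fall of at least 7.82-fold. *Cyp4a12a* was at 1 to 2 counts in the WT DDC segments and also in the TrailΔmye control diet segments. A fall on DDC in TrailΔmye could therefore not be seen for this gene, and its difference is a fitted value too. In all 5 genes the WT control diet segments were above all TrailΔmye control diet segments, while the DDC segments of the 2 genotypes overlapped. *Scp2* for example went from 205 and 478 to 10.5, 47.3, 15.8 and 42.0 in WT, whereas in TrailΔmye its range was 37.4 to 57.8 on the control diet and 13.7 to 42.6 on DDC. The sixth gene was *Gm21783*, a predicted gene that RefSeq places on the Y chromosome, with 26.3 and 63.0 against 31.5, 21.0, 42.0 and 68.3 in WT and with 1.31 to 5.25 against 25.6 to 97.8 in TrailΔmye (difference -4.23, SE 0.78, adjusted p = 0.00459). Another Y-linked gene, *Ddx3y*, had a log2 fold change of 1.53 in TrailΔmye (adjusted p = 0.0025) and of -0.17 in WT, where it was at 1 to 4 counts. The Y-linked genes *Eif2s3y* and *Uty* were not called in TrailΔmye, with log2 fold changes of 0.61 (adjusted p = 0.284) and -0.16 (adjusted p = 0.955). Of 13 male-biased liver genes, 6 were called lower in WT (46%, against 1.04% of all genes) and 7 in TrailΔmye (against 5.18% of all genes). Of 14 female-biased ones, 1 was called higher and 8 lower in TrailΔmye, and none was called in WT. In WT, 13 of these 14 were at 1 count in a whole diet group and 7 in all 6 segments. The calls of the 2 genotypes are therefore not comparable for that list. The sex of the animals is not in the labels, and its part in the genotype difference was not tested. No gene was called in this comparison without the WT control diet segment of ROI 005.

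**Figure D5:**
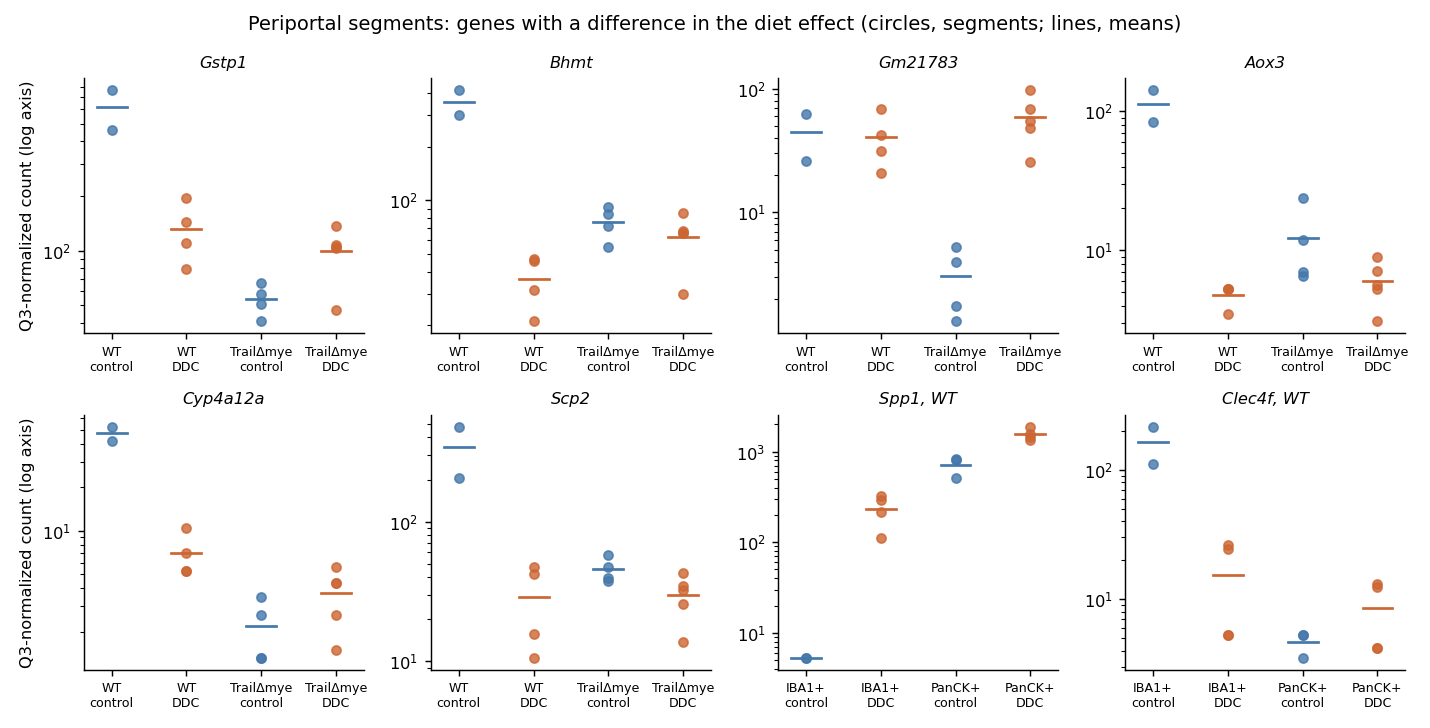
Q3-normalized counts on log axes for the 6 genes whose diet effect differed between the genotypes in periportal IBA1+ segments, and for *Spp1* and *Clec4f* in IBA1+ and PanCK+ segments of WT; circles are segments (blue, control diet; orange, DDC) and lines are means. In 5 of the 6 genes the WT control diet segments lie above all other groups, while *Gm21783* is low in TrailΔmye control diet segments only.

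Finally, the diet effect in IBA1+ segments was compared with that in PanCK+ segments of the same 6 WT ROIs, with the ROI as a block. *Spp1* was the 1 gene called (0.00948% of those tested, with 251 at an unadjusted p under 0.05), with a difference in log2 fold change of 4.39 (SE 0.79, adjusted p = 0.00412, edgeR). Both control diet IBA1+ segments were at 1 count for *Spp1*, so this difference is a fitted value. Its IBA1+ part is bounded only as a rise of at least 14.9-fold. In PanCK+ segments *Spp1* was already at 508, 819 and 809 Q3-normalized counts on the control diet (n = 3) and at 1345 to 1878 on DDC (n = 4), a log2 fold change of 1.12 in the fit without the ROI block, whereas it stood at the lowest value in the control diet IBA1+ segments. The first of these 3 PanCK+ segments came from ROI 001, which held no IBA1+ segment and was not in the fit with the block. On DDC, IBA1+ segments still held less *Spp1* than any PanCK+ segment, with 320 as their highest value. *Gas6* showed a like form, at 68.3 to 110 in PanCK+ control diet segments and 71.4 to 124 on DDC (difference 3.76, adjusted p = 0.549), and was not called. For *Clec4f* the difference was -3.86 (adjusted p = 0.549), with all 3 control diet PanCK+ segments at 1 count, and for *Slc40a1* it was -3.20 (adjusted p = 0.549). *Mup13* had a log2 fold change of -5.21 in PanCK+ (without the ROI block) and -6.25 in IBA1+ segments, and *Col3a1* had 3.89 and 5.64; neither difference was called (adjusted p = 0.9999 for both). The call of *Spp1* was lost in 5 of the 6 fits that left out 1 ROI, those without ROI 003, 005, 009, 011 or 013, and with TMM factors.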

How the data were processed

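Mouse liver sections were profiled on the GeoMx Digital Spatial Profiler of NanoString with its whole transcriptome probes for mouse. For each target and segment the authors deposited a count, obtained by 18 cycles of PCR, sequencing, bcl2fastq, quality control and a filter on the limit of quantification, with mm10 named as the build. The sources used here do not name the aligner. They also deposited a signal table, the Q3-normalized values, which equals the expected counts times 1 factor per segment. All but 3 genes and the negative probe held whole values, and these were rounded for the tests. No column was left without a sample.

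The 15 periportal IBA1+ segments of the 4 genotype and diet groups were fitted together by edgeR 4.0.16 under R 4.3.3, using its quasi-likelihood test with 1 coefficient for every group, upper-quartile factors and 11 residual degrees of freedom. All 10547 genes were tested without a filter, and a call needs a two-sided p under 0.05 after Benjamini-Hochberg adjustment. The standard error is the size of the log2 fold change over the square root of F. The difference between IBA1+ and PanCK+ segments was fitted with the ROI as a block over 12 segments. No replicate pair differed by less than the sampling noise. Alternatives were TMM factors, DESeq2 1.42.0, limma 3.58.1 on log2(Q3-normalized count + 0.5 or 1), counts of 1 set to 0, edgeR's filter on low counts, segments thinned to 20319 counts, only the 6 WT segments, the methods' unpaired two-group test, the study's volcano thresholds, each segment left out, and library totals alone. Fits were also run on simulated data with known changes, and the outcome is not reported here. The changes were placed only in genes with higher mean counts over the 15 segments, so genes with few counts throughout were not covered.

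The members, the gene lists and the tests were chosen with earlier results of these data known. The genes named are up to 20 called higher and the 20 called lower with the lowest log2 fold change, where the groups do not overlap, the called or the most abundant members of each list, genes called in the 2 tests of a difference, and defining markers (113 genes); list members named outside this rule were chosen after their values were seen. Gene positions and promoter windows are those of RefSeq (GRCm38.p6), where 10512 gene names matched. Some genes are not reported here. Python 3.11.15 was used for intervals (scipy 1.17.1) and plots (matplotlib 3.10.9).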

Additional observations from a re-analysis of the deposited data

Results flagged for a closer look

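In 8 genes the highest or lowest of the 4 DDC segments passed Dixon's critical value of 0.829 in Q3-normalized counts. Chance alone would mark some groups in this way at the 95% level. Where the other 3 segments are tied, Dixon's ratio passes whatever the gap. All 4 segments were at 1 to 5 counts in these 8 genes, and in *C9* the gap was a single count (1, 1, 1 and 2). The segment so marked was that of ROI 007 in *Nudt7* (15.8) and *Sult2a8* (15.8), that of ROI 009 in *Ephx2* (21.0), *Hal* (26.3) and *Ugt2b38* (26.3), that of ROI 011 in *Slc25a47* (5.25), and that of ROI 013 in *C9* (7.00) and *Ftcd* (10.5). *Slc25a47* was the case with the single segment below the others.

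The diet effect differed between WT and TrailΔmye periportal IBA1+ segments in 6 genes, each lower in WT by a difference in log2 fold change of -3.10 (*Gstp1*), -2.98 (*Bhmt*), -4.23 (*Gm21783*), -3.67 (*Aox3*), -3.65 (*Cyp4a12a*) and -2.89 (*Scp2*). The diet effect on *Spp1* was higher in IBA1+ than in PanCK+ segments of the same ROIs by 4.39. These differences are fitted values. In *Aox3* every WT DDC segment, and in *Spp1* every control diet IBA1+ segment, was at 1 count. In *Cyp4a12a* the WT DDC segments and the TrailΔmye control diet segments were at 1 to 2 counts.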

How the results depend on the processing

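Of the 125 calls between the diets in WT (15 higher, 110 lower), DESeq2 gave 182 (36, 146), TMM factors 75 (12, 63), counts of 1 set to 0 208 (43, 165), the filter on low counts 210 (86, 124), limma with 0.5 added 392 (84, 308) and with 1 added 434 (94, 340), thinned segments 223 (7, 216), library totals alone 104 (40, 64), and the study's volcano thresholds 534 (128, 406). The methods' unpaired two-group test gave 659 genes at an unadjusted p under 0.05 (176, 483) and 0 after Benjamini-Hochberg adjustment. None of the 125 calls was thus kept under that test. Leaving out 1 segment gave 30 to 134 calls (4 to 15 higher, 26 to 119 lower), lowest without the control diet segment of ROI 005. All 59 named genes that were called kept their direction in every setting, and 37 of them lost the call without ROI 005 and 14 without ROI 003. The median of all genes was -0.16, and -0.03 with TMM factors, 0.29 with library totals, 0.31 with the filter and -0.62 when thinned, and lists with medians near 0 changed sign with it. The 6 calls for the genotype difference became 3 with DESeq2, 11 with counts of 1 set to 0 and with the filter, 19 and 20 with limma, and 0 to 9 when 1 segment was left out.

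The segment difference had the ROI as a block; without it (no replicate block) 2 genes were called, *Spp1* and *Clec4f*, and with the replicate block 0 were called with TMM factors, 4 with the filter (556 genes), and 0 to 1 when 1 ROI was left out. No paired analysis was possible between the diets because their ROIs share no number.

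Some genes that were not called changed sign. With thinned segments the log2 fold change was -0.55 for *S100a9*, -0.18 for *Ighm*, -0.91 for *Nkg7* and *Igkc*, -0.58 for *Ftl1*, -0.14 for *Fth1*, -0.072 for *Cyp2c29*, -0.29 for *Cxcl16*, -0.10 for *Cd74*, -0.12 for *Rpl41* and -0.39 for *Epcam*. DESeq2, TMM factors, the filter and library totals gave *Gm21783* 0.0063, 0.00730, 0.24 and 0.35 and *Glul* 0.043, 0.071, 0.24 and 0.36. The filter and library totals gave *Hpx* 0.12 and 0.26 and *Aif1* 0.017 and 0.13, and library totals gave *Ddx3y* 0.28. With 1 segment left out the log2 fold change ran from -0.26 to 1.38 for *S100a9*, -0.21 to 0.72 for *Nkg7*, -0.038 to 2.26 for *Tm4sf4*, -0.16 to 1.40 for *Anxa3*, -0.17 to 0.82 for *Eng*, -0.63 to 0.63 for *Gm21783*, -0.75 to 0.81 for *Ddx3y*, -0.0696 to 0.0892 for *Ftl1*. For the others it ran from -0.74 to 0.57 for *Hpx*, -0.49 to 0.51 for *Glul*, -0.25 to 1.73 for *Ccl6*, -0.0291 to 1.38 for *Cd74*, -0.99 to 0.98 for *Aif1*, -1.25 to 1.06 for *Cd68* and -0.38 to 0.63 for *Epcam*. The cause of these changes was not tested. Between 45.6% and 70.3% of genes stood at 1 count in a segment, so that a fall in them could not be seen, and the control diet group held 2 segments.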

Other observations

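WT mice also had parenchymal IBA1+ segments, 1 on the control diet (ROI 004) and 2 on DDC (ROIs 010 and 012), which are too few for a test. *Clec4f* was at 42.0 Q3-normalized counts in the control diet segment and at 70.0 and 108 in the DDC segments, and *C1qa* at 84.0 and then 80.5 and 108. *Col1a1* was at 5.25 and then 7.00 and 10.5, *Col3a1* at 5.25 and then 10.5 and 12.0, and *Spp1* at 5.25 and then 21.0 and 105. *Mup13* was at 23020 and then 315 and 596 and *Fabp1* at 1229 and then 168 and 212, while *Alb* was at 7264 and then 7682 and 10230. *Gas6* was at 10.5 in the control diet segment and at 7.00 and 3.00 in the DDC segments.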
